A study of Mus musculus with 12 samples.

Results

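The small leucine-rich proteoglycans are secreted proteins built from leucine-rich repeats that bind collagen fibrils. The genes described here are Lum, Dcn, Bgn, Fmod, Ogn, Omd, Aspn, Prelp, Kera and Epyc, which were found by the RefSeq accession of each array probe that was not a control. Of these 10 genes, 9 had a matched probe and 8 could be tested, among 25082 features tested in all. No probe of Prelp was matched, so Prelp has no value here. Each of the other genes had 1 probe. The set was chosen by measured values in part, namely the fall of Lum on the clp arrays, so the differences between treatment levels are given as descriptions with no test. Differences between genotypes and between days did not enter that choice and were tested.

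RNA of 12 mouse samples was labelled with Cy5 and compared on 2-colour arrays with a Cy3-labelled pool of all conditions, the same on every array per the labels. There was 1 array for each combination of 2 genotypes, Eng+/- (written end+/- in the sample titles) and wt, 2 days (50 and 90), and 3 treatment levels, namely clp, tpa and no named treatment. Eng encodes endoglin, a co-receptor of the Tgf-β family, and the series concerns its part in the hair follicle cycle. What clp and tpa stand for, what the days count and how the Eng allele was made are not given in the sources used here. The word pool stands in the titles of the wt pair that got no named treatment. The 4 arrays of a treatment level share a slide, so slide and treatment level cannot be told apart. With 1 array per combination, p-values measure the spread that genotype and condition leave unexplained.

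In connective tissue these proteoglycans set the width and spacing of collagen fibrils. Decorin (Dcn), biglycan (Bgn) and asporin (Aspn) form one class, and decorin and biglycan carry chondroitin or dermatan sulfate chains and can bind Tgf-β. Lumican (Lum), fibromodulin (Fmod), keratocan (Kera), osteomodulin (Omd) and prolargin (Prelp) form the next, in which keratan sulfate chains are common. Osteoglycin (Ogn) and epiphycan (Epyc) belong to another class. Decorin and lumican are abundant products of dermal fibroblasts, keratocan is best known from the cornea, osteomodulin from bone and epiphycan from growth cartilage.

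The labels call the material E14 embryonic stem cells. All 13 fibroblast markers examined were above background on all 12 arrays, as were 7 of the 8 hair shaft markers with a probe. Of 6 embryonic stem cell markers, 4 exceeded background on each array, while 1 did so on no array. The median Cy5 signal of an array lay between 166.5 and 573 scanner units. Hair shaft markers, keratins and Dsg4 of the hair fibre, set 3 arrays apart: their mean log2 ratio was -5.79 on the untreated Eng+/- array of 90 d (untreated here means no named treatment), -4.5 on Eng+/- tpa 50 d and -5.08 on wt tpa 50 d, against -1.58 to 0.94 on the other 9. Eng itself was lower on the Eng+/- array in 5 of 6 matched pairs (-0.77 ± 0.26, SE; limma, adjusted p = 0.331). The pair of tpa at 50 d went the other way (0.63), against its labels, so the members' genotype values are also given without it.

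Unless stated otherwise, values below are log2 ratios of Cy5 over Cy3 after background correction and loess normalization within each array. Loess sets the typical spot of each brightness to 0, so a negative ratio means less sample signal relative to the pool than other spots of that brightness. Ratios of different genes are therefore not compared as levels. Bgn, for example, had Cy5 readings of 181 to 1101 and Cy3 readings of 249.5 to 432 scanner units, and its log2 ratio was negative on all 12 arrays.

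Lum, the member with the widest spread over the arrays, was lower on every clp array than on any array with no named treatment. With no named treatment its log2 ratio was 2.09 (Eng+/-, 50 d), 1.53 (wt, 50 d), 0.79 (Eng+/-, 90 d) and 1.73 (wt, 90 d). With clp it was -0.28, -0.80, 0.42 and 0.06 in the same order, so the groups did not overlap, and the clp arrays of day 50 were the lowest. The fitted difference was -1.68 ± 0.25 (SE, 4 arrays against 4), and it ran from -1.98 without the untreated Eng+/- array of 90 d to -1.38 without the untreated wt array of 90 d. Among the 8 members Lum was the only one whose clp and untreated arrays did not overlap (12.5% of the members, against 3.98% of all features in that direction and 9.27% in either). Under median centring without loess the difference was -0.89, and -1.19 with Cy5 alone.

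Saturation limits what Lum can show with tpa. Its Cy5 spot read 65529 on all 4 tpa arrays, the top of the scanner range, and 65528 on the untreated Eng+/- array of 90 d. The other readings with no named treatment lay between 41747.5 and 53857, and those with clp between 12763.5 and 39960. The saturated readings are thus lower limits of the true Cy5 signal. The log2 ratios of the tpa arrays were 0.95 (Eng+/-, 50 d), 1.13 (wt, 50 d), 0.98 (Eng+/-, 90 d) and 0.95 (wt, 90 d). Saturated spots also entered the loess fit, so whether these ratios are lower limits was not tested. Lum was 1.85-fold higher with tpa than with clp, from mean normalized Cy5 values of 14.55 and 13.66 (log2). With 4 tpa arrays saturated, that fold is a description and not a strict limit. For these Cy5 values alone, mean spot brightness was also quantile scaled between arrays after loess. No fold is given between tpa and no named treatment: the fitted value of -0.53 ± 0.25 rests on saturated spots and turned to 0.17 under median centring.

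Dcn could not be measured. Its spot read 46848 to 65535 in Cy5 over the 12 arrays, with 8 arrays saturated. The Cy3 pool read 64180 to 65535 on 11 arrays and 28777 on the untreated Eng+/- array of 90 d, where the spot was also marked as an outlier. Decorin RNA was at or near the top of the scanner range in sample and pool alike, so the ratio carries no information on differences between conditions.

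**Figure D1:**
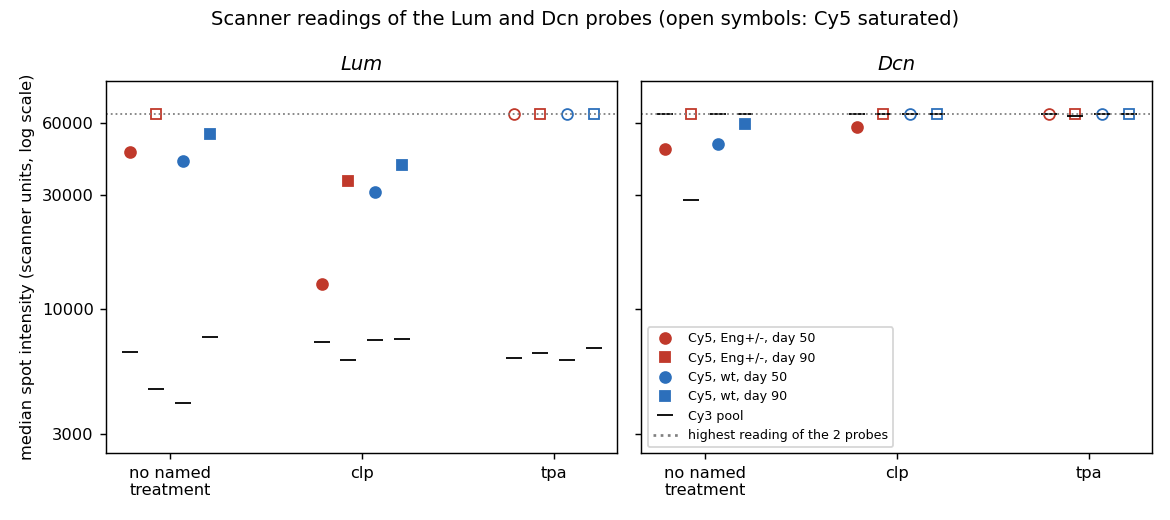
Median spot intensity in scanner units (log axis) of the Lum and Dcn probes on each of the 12 arrays by treatment level. Coloured symbols are the Cy5 sample by genotype and day, open where saturated, black bars are the Cy3 pool and the dotted line is the highest reading of both probes; Lum reached 65529 on the 4 tpa arrays, while Dcn was near the top in both channels on most arrays.

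Ogn, osteoglycin, stood highest with tpa. Its log2 ratio with tpa was 1.08 (Eng+/-, 50 d), 0.98 (wt, 50 d), 0.88 (Eng+/-, 90 d) and 0.73 (wt, 90 d), and with clp it was -0.36, -0.64, -0.26 and -0.08. The 2 groups did not overlap, and the fitted difference, clp minus tpa, was -1.25 ± 0.18 (SE), lower in 4 of 4 matched pairs. The raw Cy5 readings did not overlap either, at 18474 to 22119.5 with tpa and 2311 to 8313.5 with clp.

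With no named treatment Ogn was uneven, at -0.30 (Eng+/-, 50 d), -0.23 (wt, 50 d), 1.14 (Eng+/-, 90 d) and 0.29 (wt, 90 d). The value of 1.14 was the highest of all 12 arrays and comes from the array with the lowest hair shaft markers. The 3 highest Ogn values, 0.98 to 1.14, were on the 3 arrays with hair shaft means of -4.5 and below. The clp difference from no named treatment was -0.56 ± 0.18, or -0.36 without that Eng+/- array, -0.76 without the untreated wt array of 90 d and 0.00 under median centring. The tpa difference was 0.69 ± 0.18, or 0.89 without that Eng+/- array, 0.49 without the wt one and 1.36 under median centring. The part of hair shaft RNA in the Ogn values was not tested.

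Aspn, asporin, which competes with decorin for collagen, was also lower with clp than with tpa. With clp it was 0.86 (Eng+/-, 50 d), 0.49 (wt, 50 d), 1.19 (Eng+/-, 90 d) and 0.55 (wt, 90 d), and with tpa 1.59, 1.59, 1.80 and 1.52. The arrays did not overlap, and clp minus tpa was -0.85 ± 0.15 (SE). With no named treatment Aspn was 1.77, 1.12, 1.55 and 0.98, which overlapped both other levels. The clp difference from no named treatment was -0.58 ± 0.15, lower in 4 of 4 pairs (-0.36 to -0.90), and the tpa difference was 0.27 ± 0.15. Under median centring these were -0.27 and 0.91.

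Omd, osteomodulin, changed less. It ranged from -1.22 to -0.28 with no named treatment, from -1.02 to -0.47 with clp and from -0.47 to -0.10 with tpa. Its clp arrays lay below the tpa arrays in 4 of 4 pairs (-0.37 ± 0.23, SE), with touching ranges at -0.47. Its tpa difference from no named treatment was 0.46 ± 0.23, or 0.74 without the untreated Eng+/- array of 90 d and 0.18 without the untreated wt one. The clp difference, 0.09 ± 0.23, changed sign when single arrays were left out (-0.19 to 0.37).

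Aspn, Omd and Ogn are neighbours on chromosome 13, in that order and after their relative Ecm2, in the RefSeq table (GRCm38.p6). All 3 were lower with clp than with tpa in 4 of 4 pairs, as were Lum and Kera, neighbours on chromosome 10, and 13.3% of all features. Epyc, next to Kera, was also lower in 4 of 4 pairs, on signals close to background. Dcn, beside Lum, could not be measured. The promoters of Aspn, Omd and Ogn are shown because these 3 genes are adjacent. The sequences are the 250 bases before each RefSeq start on the plus strand of GRCm38.p6: chr13:49544193-49544442 for Aspn, chr13:49582212-49582461 for Omd and chr13:49607765-49608014 for Ogn. Capitals mark matches to TATAAA on either strand.
Aspn: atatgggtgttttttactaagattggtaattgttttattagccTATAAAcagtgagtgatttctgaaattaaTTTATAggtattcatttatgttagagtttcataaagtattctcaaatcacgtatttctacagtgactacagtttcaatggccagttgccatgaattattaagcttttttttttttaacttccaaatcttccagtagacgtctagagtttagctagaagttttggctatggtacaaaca
Omd: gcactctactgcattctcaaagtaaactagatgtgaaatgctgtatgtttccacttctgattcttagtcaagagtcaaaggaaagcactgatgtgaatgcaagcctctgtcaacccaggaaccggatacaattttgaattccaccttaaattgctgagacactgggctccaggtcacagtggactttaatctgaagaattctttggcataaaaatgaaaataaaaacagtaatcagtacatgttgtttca
Ogn: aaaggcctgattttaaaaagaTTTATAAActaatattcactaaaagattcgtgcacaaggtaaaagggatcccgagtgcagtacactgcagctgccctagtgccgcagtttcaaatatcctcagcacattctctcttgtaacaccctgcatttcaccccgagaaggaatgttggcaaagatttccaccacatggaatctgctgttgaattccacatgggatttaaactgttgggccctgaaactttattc
Aspn had 2 separate matches and Ogn 2 overlapping ones, while Omd had none. TATAAA was found in 12.4% of 32851 RefSeq promoters of the same length. Also searched on both strands were CAGAC (the core bound by Smad proteins, in 42.2% of promoters), TGANTCA (the Ap-1 site, in 6.75%) and GGGCGG (the GC box, in 32.7%). None of these was in the 3 windows. Of the other members in the table, Fmod had 2 matches to CAGAC and Prelp 1, Bgn had 3 to GGGCGG, and Kera and Epyc had no match to any of the 4 motifs.

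Fmod, fibromodulin, which binds type I collagen and lysyl oxidase, had the smallest spread of the 8 over the arrays (SD 0.24). Its log2 ratio was 0.47 to 1.04 with no named treatment, 0.17 to 0.83 with clp and 0.73 to 0.83 with tpa. The clp difference was -0.27 ± 0.14 (SE) and the tpa difference -0.03 ± 0.14, with overlap in every comparison. The clp difference was larger with the authors' signals (-0.60 ± 0.18) and with Cy5 alone (-0.72 ± 0.21), and the tpa difference was then -0.45 and -0.40. Bgn, biglycan, spanned -2.10 to -0.69, -2.04 to -0.66 and -2.02 to -1.37 at the same levels. Neither its clp difference (0.20 ± 0.30) nor its tpa difference (0.03 ± 0.30) was larger than its SE. Under median centring these were 0.57 ± 0.31 and 0.55 ± 0.31, where the medians of all features were 0.241 and 0.336.

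Kera, keratocan, was printed in 10 spots per array, which gives a direct view of technical spread. The SD over the spots of an array was 0.09 to 0.79, with a median of 0.16 over the 12 arrays. It was taken from the authors' log ratios, turned to log2, so it is not the spread of the loess ratios below. Its Cy5 was above background in 120 of 120 spots and Cy3 in 113 of 120, so keratocan RNA was detected on every array. The wt array of 50 d with no named treatment had the SD of 0.79, and Cy3 above background in only 4 of 10 Kera spots. The Kera ratio was 0.13 to 0.79 with no named treatment, -0.13 to 0.47 with clp and 0.35 to 0.57 with tpa. The value with clp was below that with tpa in 4 of 4 pairs (-0.39 ± 0.13, SE), though the ranges overlapped. That difference was -0.90 with the authors' signals, -0.75 under median centring and -0.70 with Cy5 alone. The clp difference from no named treatment was -0.33 ± 0.13, but -1.28 with the authors' signals.

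Epyc, epiphycan, was close to background. Cy5 was well above background on 3 of 12 arrays and Cy3 on 0. Those 3 arrays were Eng+/- 90 d with no named treatment (log2 ratio 0.65), Eng+/- tpa 50 d (0.59) and wt tpa 50 d (0.53), the same 3 that had the lowest hair shaft markers. On the other 9 arrays the ratio was -0.02 to 0.44. All 4 clp values (-0.02 to 0.26) lay below all 4 tpa values (0.29 to 0.59), but the clp arrays were not well above background and no fold is given. The part of hair shaft RNA in the Epyc signal was not tested.

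**Figure D2:**
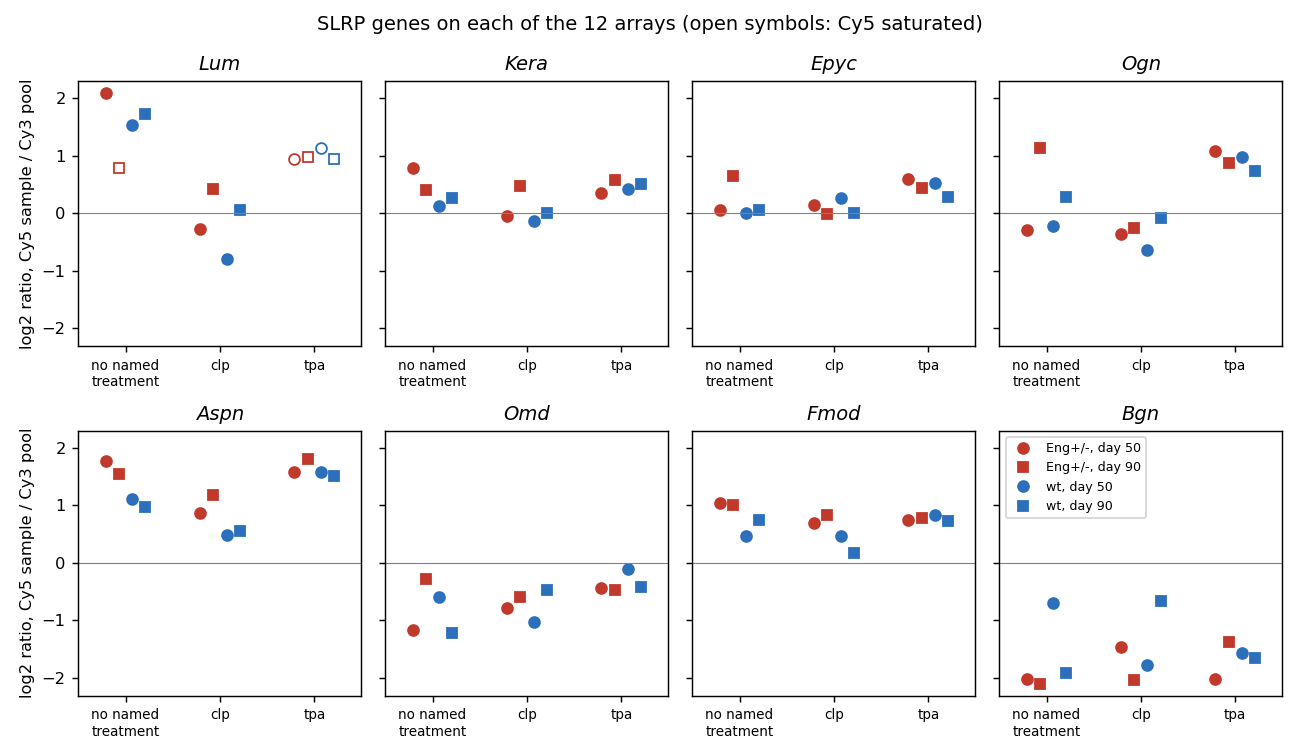
Log2 ratio of Cy5 sample over Cy3 pool for the 8 members tested, by treatment level, 1 point per array, with colour for genotype and shape for day; open symbols mark saturated Cy5 spots. Lum with clp (-0.80 to 0.42) lies below Lum with no named treatment (0.79 to 2.09), and Ogn with clp lies below Ogn with tpa.

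Leaving out Epyc, which passed the filter on low signals through 3 arrays without clp, 3 of 7 members (Lum, Ogn and Aspn) had all clp arrays below all tpa arrays, against 7.97% of all features in that direction and 16.2% in either. None of the 7 had its clp arrays above its tpa arrays (8.24% of all features did). The median difference over the 7, clp minus tpa, was -0.393, against 0.0494 over all features. In tpa against no named treatment the arrays of 0 of 8 members were separate, against 11.2% of all features. The comparisons share arrays, so they are not independent of each other or of the choice of Lum.

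**Figure D3:**
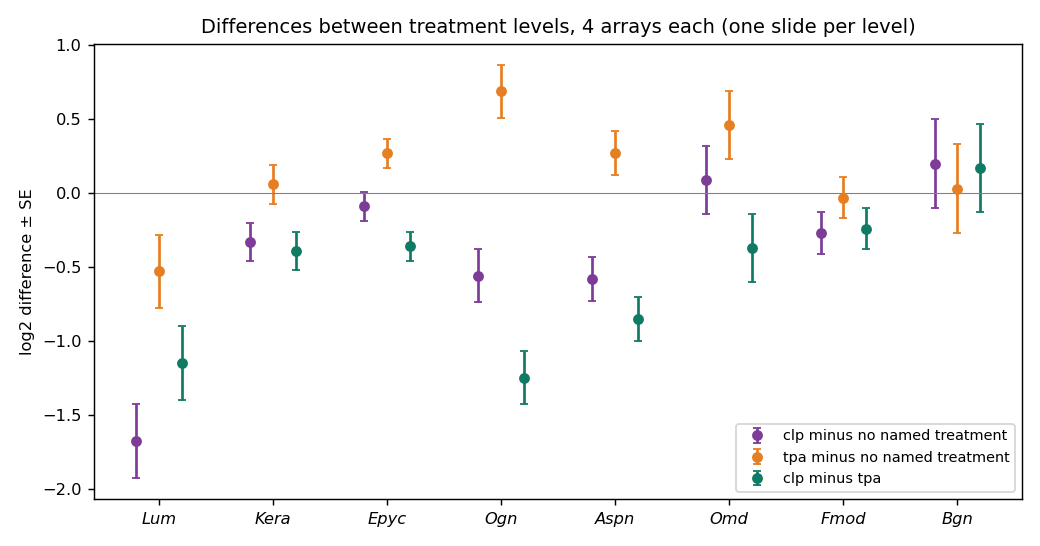
Fitted log2 differences with SE for the 8 members between treatment levels, 4 arrays per level. Lum has the lowest clp value (-1.68), Ogn has a clp minus tpa value of -1.25 and the highest tpa value (0.69), the Lum values with tpa rest on saturated spots, and Bgn lies within its SE of 0 in all 3.

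Markers of fibroblasts moved in the same direction on the same arrays. The mean log2 ratio of the 13 fibroblast markers was 0.52 to 0.75 with no named treatment, -0.51 to 0.09 with clp and 0.31 to 0.61 with tpa. All 13 differences, clp minus no named treatment, were negative (median -0.843, against 0.0108 over all features), and 6 of 13 had clp arrays below all untreated arrays (3.98% of all features did). Cy5 was saturated on 10 of 12 arrays for Vim and for Sparc, on 6 for Pi16, on 5 for Fn1 and on 3 for Postn, so their ratios are compressed. The other fibroblast markers were saturated on no array. The lowest fibroblast mean (-0.51, wt clp 50 d) was on the array with the lowest Lum value. Among macrophage markers 3 of 5 had clp arrays below all untreated arrays, with a median of -1.22, and among endothelial markers 0 of 5 (median -0.263), against the same 3.98%. Medians were also negative for markers of skeletal muscle (-0.589), epidermis (-0.393), adipocytes (-0.275) and tendon and cartilage (-0.139). Of these lists, 1 of 7 epidermis markers had clp arrays below all untreated arrays (Lor). In the skeletal muscle, adipocyte, and tendon and cartilage lists 0 of 7, 0 of 6 and 0 of 7 genes did. Saturation in Cy5 limits these lists too, on 12 of 12 arrays for Lor, Krt5 and Cfd and on 11 for Acta1 and Myh1, among others. The macrophage marker Csf1r was saturated on 3 arrays, and the hair shaft markers Krt33a and Krt86 on 7 each. Hair shaft markers had positive differences with clp in 8 of 8 genes (median 1.83), with overlapping arrays. In such bulk RNA, fewer cells of a type and less RNA per cell cannot be told apart, and the part of these cell types in the SLRP values was not tested.

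**Figure D4:**
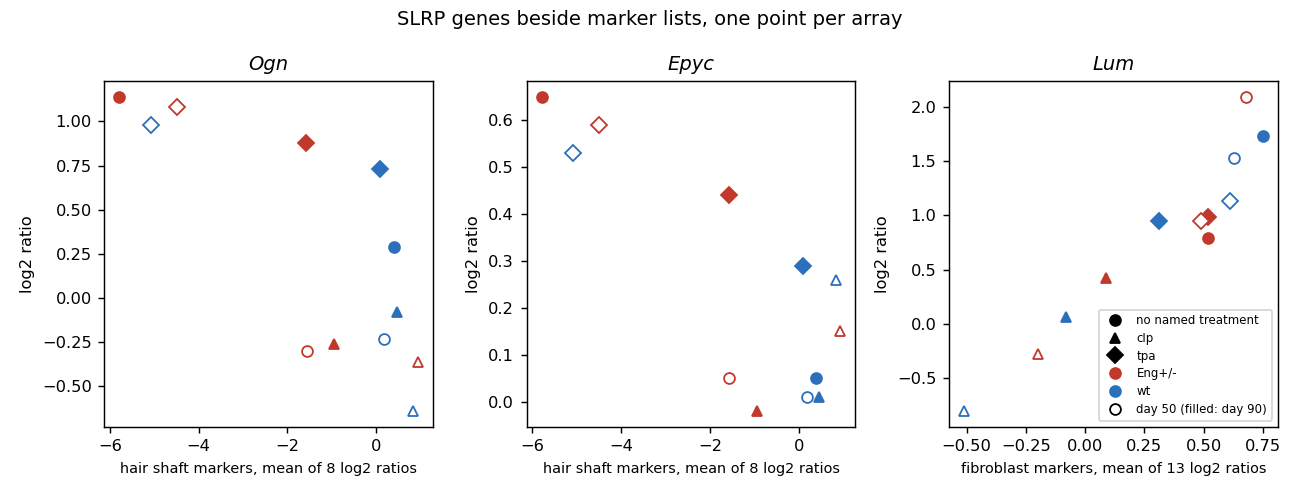
Log2 ratio of Ogn and Epyc against the mean log2 ratio of 8 hair shaft markers, and of Lum against the mean of 13 fibroblast markers, 1 point per array; shape gives treatment level, colour genotype and open symbols day 50. The 3 arrays at the far left have the highest Ogn and Epyc values, and the 4 clp arrays are the lowest in both Lum and fibroblast markers. Several markers of both lists had saturated Cy5 spots on some arrays.

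The 8 other SLRP family genes (Ecm2, Optc, Chad, Chadl, Nyx, Tsku, Podn and Podnl1) all had negative fitted differences with clp. Their median was -0.154, against 0.0108 over all features. The values of Nyx (-0.01 ± 0.09, SE), Optc (-0.04 ± 0.11) and Podn (-0.15 ± 0.33) were smaller than their SE. That of Podnl1 (-0.07 ± 0.07) was about the size of its SE, and the others were larger. Only Ecm2, a matrix protein encoded beside Aspn, had separate arrays: -0.07 to 0.13 with no named treatment and -0.85 to -0.23 with clp (-0.57 ± 0.11, SE). That is 1 of 8 genes, against 3.98% of all features in that direction and 9.27% in either. With tpa Ecm2 was -0.40 to 0.01. Podnl1 was the only 1 of the 8 with clp arrays below all tpa arrays (-0.19 ± 0.07), against 7.97% of all features in that direction and 16.2% in either. With 1 gene of 8 in each comparison, no trait of the family is read from it. Podn, podocan, the brightest of these probes, overlapped throughout.

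The collagens that these proteoglycans bind were read in part. Col1a1 and Col3a1, main chains of dermal fibrils, were saturated in Cy5 on 12 of 12 arrays and Col1a2 on 11, so their ratios are compressed. Of 9 fibrillar collagen genes, 1 had clp arrays below all untreated arrays, the type V chain gene Col5a1 (-1.08 ± 0.17, SE), whose product sets fibril width, against 3.98% of all features. Of 5 tested genes for fibril-associated and type VI collagens, 3 did: Col6a1 (-0.67 ± 0.21), Col6a3 (-0.88 ± 0.21) and Col14a1 (-0.93 ± 0.16). Of 11 genes for collagen processing and crosslinking, 4 did, namely Lox (-0.84 ± 0.19) and Loxl1 (-1.05 ± 0.17), lysyl oxidases that crosslink collagen, Pcolce (-0.77 ± 0.16), the enhancer of procollagen C-proteinase, and Adamts2 (-1.32 ± 0.29), a procollagen N-proteinase. These genes were named for their separate arrays after their values were seen. Among them Pcolce was saturated in Cy5 on 3 of 12 arrays, so its ratios there are compressed.

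Genes that build the sugar chains were also listed. Of 21 genes of chondroitin and dermatan sulfate synthesis, 2 had clp arrays below all untreated arrays (3.98% of all features did, and 9.27% were separate in either direction), the sulfotransferase genes Chst7 (-0.78 ± 0.12, SE) and Chst15, and the median difference was -0.179. Of 6 tested keratan sulfate genes, 0 had separate arrays with clp, with a median of 0.0466. Among 10 protease genes whose products can cut SLRPs, 1 had clp arrays below all untreated arrays, Gzmb. Against tpa, where 7.97% of all features had lower clp arrays, 4 did, Mmp2, Mmp9, Mmp13 and Gzmb, named like the sulfotransferases after their values were seen. Bmp1, the procollagen C-proteinase that also processes probiglycan, was the opposite case, with clp minus tpa at 1.06 ± 0.25. Of 9 other matrix proteoglycan genes, 0 had separate arrays between clp and no named treatment.

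The genotype comparison asks whether SLRP RNA differed between Eng+/- and wt samples in 6 pairs matched for treatment and day. No member passed the threshold with limma, where 0% of 25082 features passed and 3336 (13.3%) had an unadjusted p under 0.05. The member with the most regular difference was Aspn, higher in Eng+/- in 6 of 6 pairs. Its differences were 0.65 (no named treatment, 50 d), 0.58 (no named treatment, 90 d), 0.37 (clp, 50 d), 0.65 (clp, 90 d), 0.01 (tpa, 50 d) and 0.29 (tpa, 90 d). The fitted value was 0.42 ± 0.12 (SE; limma, adjusted p = 0.312), and 3.21% of all features were higher in 6 of 6 pairs. Without the tpa 50 d pair it was 0.51 (limma, adjusted p = 0.264).

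Fmod and Kera were each higher in 5 of 6 pairs. Fmod differed by 0.28 ± 0.11 (SE; limma, adjusted p = 0.357), with pair values from -0.08 to 0.66. Kera differed by 0.22 ± 0.10 (limma, adjusted p = 0.395), with pair values from -0.07 to 0.66. The value of 0.66, with no named treatment at 50 d, uses the wt array on which Kera was measured worst (Cy3 above background in 4 of 10 spots). Both were lower in Eng+/- in the tpa 50 d pair alone, where Eng was higher. Without that pair Fmod was 0.35 (limma, adjusted p = 0.357) and Kera 0.28 (limma, adjusted p = 0.387).

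Bgn was lower in Eng+/- in 4 of 6 pairs (-0.46 ± 0.24, SE; limma, adjusted p = 0.437). That value rests on pairs of -1.34 (no named treatment, 50 d) and -1.38 (clp, 90 d), while the others lay between -0.47 and 0.31. Lum differed by 0.06 ± 0.21, Omd by 0.01 ± 0.19, Ogn by 0.19 ± 0.15 and Epyc by 0.12 ± 0.08, each with pairs of both signs. For Lum the 2 tpa pairs compare saturated spots. Its lowest pair value, -0.94 with no named treatment at 90 d, also rests on a saturated spot, that of Eng+/-. The sign of the small Lum value and that of Omd changed when single pairs were left out. Without the tpa 50 d pair Bgn was -0.46, Lum 0.11, Omd 0.08, Ogn 0.20 and Epyc 0.13. Once the untreated pair of 90 d was left out, Ogn was 0.05 and Epyc 0.02. Aspn and Fmod were the 2 members with an unadjusted p under 0.05 for genotype, out of 8. The median over the 8 members was 0.152, against -0.00989 over all features.

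**Figure D5:**
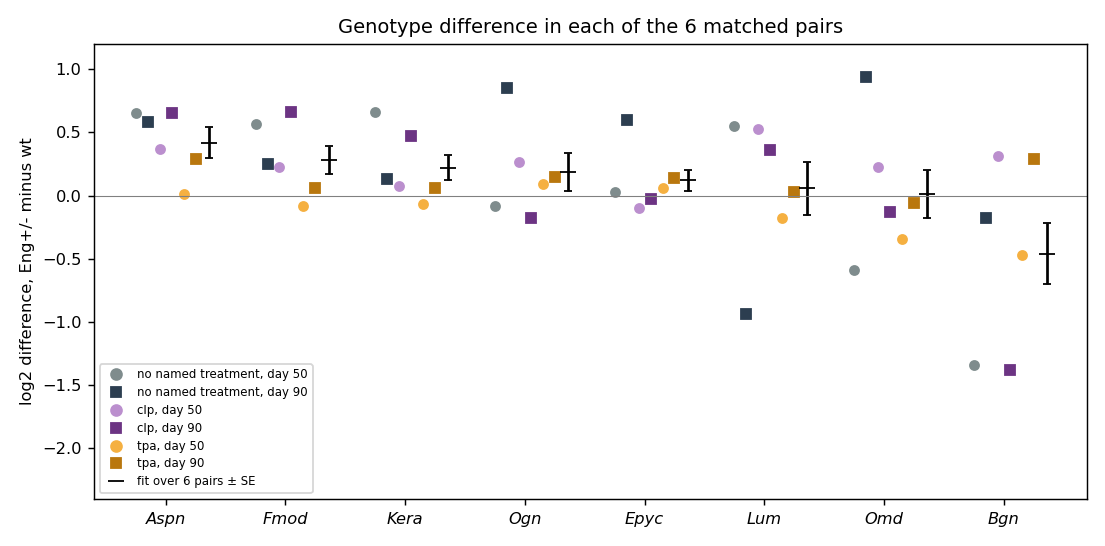
Log2 difference, Eng+/- minus wt, of the 8 members in each of the 6 matched pairs, with the fitted value and its SE in black. Aspn is at or above 0.01 in all 6 pairs, Fmod and Kera are below 0 in the tpa 50 d pair alone, and Lum, Omd and Bgn have pairs on both sides of 0.

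Other matrix genes passed for genotype in no case either. Of the 9 fibrillar collagen genes 0 passed, with a median of 0.117, and of the 11 collagen processing genes 0 passed, with a median of 0.185. P4ha2, a collagen prolyl hydroxylase, had the smallest p among the latter (0.40 ± 0.17, SE; limma, adjusted p = 0.37). Of the 13 fibroblast markers 0 passed, with a median of 0.135, and 9 had positive fitted values. Fap, a fibroblast surface protease, had the smallest p among them but was 1 of the 4 with a negative value (-0.38 ± 0.14; limma, adjusted p = 0.336). Hair shaft markers had negative fitted differences in 8 of 8 genes (median -1.68), and none passed. The part of hair shaft RNA in the SLRP differences was not tested.

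The day comparison asks whether SLRP RNA differed between 90 d and 50 d. No member passed with limma over all treatments, where 0% of features passed and 301 (1.2%) had an unadjusted p under 0.05. Ogn had the smallest p of the members, with 0.36 ± 0.15 (SE; limma, adjusted p = 1), higher at 90 d in 4 of 6 pairs. The difference was 0.98 ± 0.26 with no named treatment (limma, adjusted p = 0.836), where 0% of features passed and 1377 (5.49%) had an unadjusted p under 0.05. Its 2 pairs there were 1.44 in Eng+/- and 0.52 in wt. Without the Eng+/- 90 d array the difference was 0.58, and without the wt 90 d array 1.38. Of 18 alternatives run, only the latter called Ogn, along with other features. That fit leaves 1 untreated array at 90 d.

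Within clp, Lum was higher at 90 d (0.42 and 0.06) than at 50 d (-0.28 and -0.80). The difference of 0.78 ± 0.36 (SE) did not pass (limma, adjusted p = 0.404). In clp 0% of features passed and 3165 (12.6%) had an unadjusted p under 0.05. In tpa, where 0% passed and 1445 (5.76%) had an unadjusted p under 0.05, 0 of 8 members did, with values from -0.22 (Ogn) to 0.27 (Bgn).

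Whether the day difference varied with treatment was tested as an interaction. It was not called for any member or feature (0%, with 3420 features, 13.6%, at an unadjusted p under 0.05). Ogn came closest (limma, adjusted p = 0.327). Epyc was next (limma, adjusted p = 0.366), but its Cy5 was well above background on only 3 of 12 arrays, none of them clp, so its value is not read as a difference. The genotype difference did not vary detectably with day (0% of features called, 898 or 3.58% at an unadjusted p under 0.05) or with treatment (0% called, 654 or 2.61%), in a model with 2 residual degrees of freedom. The smallest adjusted p of a member was 0.984 for the former and 1 for the latter.

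Likeness to other genes was measured as the root mean square difference of log2 ratios, each gene centred on its mean, over the same 12 arrays and the same pool. Nearest to Lum were H2-Eb1, an MHC class II gene (0.21), Fli1, an Ets factor (0.24), and Prkcb, a protein kinase C (0.25), against an SD of 0.83 for Lum itself. Nearest to Ogn (SD 0.65) were Ninj1 (0.14), Tgfbr2, a Tgf-β receptor (0.15), and Gm4788 (0.15). Nearest to Aspn (SD 0.46) were Cd207, the langerin of Langerhans cells (0.17), Angptl1 (0.19) and Rnf125 (0.19). No member was among the 3 nearest genes of another.

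For the remaining members the nearest genes were Rpgrip1l, Fam20c and Gimap5 for Fmod (each 0.09), Abhd3 (0.09), Nell1 and Adgrg5 for Kera, and Ifitm1 (0.11), Clec2i and C1qtnf7 for Omd. Pkn2, Kat6b and 1700028I16Rik (each 0.20) were nearest to Bgn, and Cog6 (0.07), Trhde and Dleu7 to Epyc. Between members the closest pair was Fmod and Kera (0.17), followed by Aspn and Kera (0.23), and the farthest was Lum and Bgn (0.98). These are descriptions over arrays that differ in treatment, genotype and day, and members with small spread have small distances.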

How the data were processed

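The authors' scanner files hold median and processed intensity values of both dyes, deposited per spot, with flags for saturation, outliers and background. Per the file headers they come from Agilent Feature Extraction 10.7.3.1, while the submitters' processing notes name 10.0. The authors' value table, deposited as log10 ratios of processed Cy5 over Cy3, equalled the scanner files' log10 ratio on every spot (largest difference 0). Dye swaps with wt as Cy3 are described for the series but do not appear in the array labels, which set the direction here. The file headers give mm9 for the probes, so no gene coordinates of the files are printed.

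Median intensities were corrected with limma 3.58.1 in R 4.3.3 (normexp, offset 50, loess within arrays, control spots weight 0, no scaling between arrays), and spots of a probe were averaged. Quantile scaling between arrays was used only for the fold of Lum between tpa and clp and for the alternative with Cy5 alone. Of 39429 probes, 975 with outlier flags were left out. A probe was tested if Cy5 was above background on at least 2 of 12 arrays (30495 probes), with the brightest probe on average taken for each gene (25082 features, 17164 with a symbol, through RefSeq accessions). The model held genotype and 6 treatment-by-day conditions (5 residual degrees of freedom, eBayes with a trend on intensity). A second model held all 2-way interactions. P-values are two-sided, adjusted by Benjamini-Hochberg over all features, with a threshold of 0.05. The model was checked on simulated data. The number of arrays limits the precision.

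Members and gene lists (18 lists, 165 genes) were chosen with earlier results of these data known. Named are all members, the other SLRP family genes, per list and tested comparison at most 2 genes of smallest p and the 2 best measured, the 3 nearest genes of each member, and Eng. Other genes named for separate arrays between treatment levels were chosen after their values were seen. Promoters come from the RefSeq table of GRCm38.p6, which matched 8 of the 10 members. Lum and Dcn promoters were not used here. Alternatives tried were the authors' processed signals, median centring, Cy5 alone, other filters, every probe, and each array left out.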

Additional observations from a re-analysis of the deposited data

Results flagged for a closer look

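In 32 groups of values (8 members, the 4 arrays of each treatment level and the 6 genotype pairs), 5 values lay far from the rest of their group. Chance alone gives about 1 in 20. Lum on wt tpa 50 d was 1.13, against 0.95 to 0.98 on the other tpa arrays, all saturated. Bgn on wt 50 d with no named treatment was -0.69, against -2.1 to -1.92. Omd on wt tpa 50 d was -0.1, against -0.47 to -0.41. Epyc on Eng+/- 90 d with no named treatment was 0.65, against 0.01 to 0.05, and its genotype difference in that pair was 0.6, against -0.1 to 0.14 in the others. That array also has the lowest hair shaft markers (-5.79), and its part in the Epyc values was not tested.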

How the results depend on the processing

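No paired analysis by replicate number was possible because the labels give no replicate numbers; genotype pairs were matched by treatment and day in every fit. Median centring without loess took the median of all features from -0.0321 to -0.932 for genotype by treatment, from -0.0015 to 0.336 for tpa, from 0.0108 to 0.241 for clp, from -0.0124 to 0.239 for day with no named treatment, from 0.0117 to -0.189 for day by treatment, from -0.00989 to 0.107 for genotype, from 0.00971 to -0.107 for day in tpa and from 0.0445 to -0.0566 for genotype by day. It called 222 features for genotype, 245 for day in tpa, 313 for day by treatment, 146 for genotype by day and 10637 (42.4%) for genotype by treatment, where the main setting called 0, and 4 members for genotype by treatment. The cause was not tested. With single arrays left out, 0 to 2 members were called for day with no named treatment and 0 to 1 for day by treatment, and the genotype difference ran from -0.04 to 0.26 for Lum and from -0.18 to 0.13 for Omd. The other alternatives run called 0 members in the tested comparisons. Beside that tpa median of 0.336, median-centred tpa differences were 0.91 for Aspn, 1.36 for Ogn, 1.15 for Omd and -0.41 for Epyc. Kera with tpa was 0.06, but -0.20 with Cy5 alone and -0.38 with the authors' signals. Saturation limits Lum and Dcn, and background limits Epyc.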
